A study of Mus musculus with 20 samples.

Results

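A set of 49 genes in mouse kidney is described here that stood high after testosterone in wild type (WT) animals and were already low, without testosterone, in animals with an altered androgen receptor. The members were chosen from group means of read counts scaled to library size (CPM, with edgeR's TMM factors). A gene had to average at least 5 CPM with WT testosterone and at least 1.5 times its WT vehicle mean, and its mean in ARLmon vehicle kidneys had to be at most 0.5 times the WT vehicle mean. Of 15549 genes tested, 712 met the first conditions and 83 met all of them. A fixed list of symbols removed 34 of the 83, which left the 49 members. The list held transporter, cytochrome, conjugation, steroid and predicted-gene symbols. It also held single genes by name: Adh1, Pzp, Synpr, Cntnap5a, Ctxn3, Ccl28, Mpped1, Timd2 and Atp11a. Because measured levels chose the members, their WT testosterone, WT vehicle and ARLmon vehicle levels are compared with each other as a description with no test. The tests set ARLmon testosterone against WT vehicle or ARLmon vehicle. Both of those vehicle groups were used in choosing the members, so these tests are only partly independent.

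The androgen receptor is a nuclear receptor that binds testosterone or its more potent product dihydrotestosterone, moves to the nucleus and regulates genes through androgen response elements in DNA. Mouse kidney is a classical androgen target: proximal tubule cells respond to testosterone with higher levels of many metabolic enzymes and transporters. The ARLmon allele is a knock-in change in the ligand-binding domain of the receptor at the surface where paired receptors touch, and it is known for a loss of androgen response in male mice.

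The kidneys came from male C57BL/6J mice that were all orchidectomised, which removes the testes as the main source of testosterone, and then given replacement for 4 days. The 4 groups of 5 libraries were ARLmon/Y males with testosterone, ARLmon/Y males with vehicle, WT males with testosterone and WT males with vehicle. Every group had therefore lost its own testicular hormone, and the vehicle animals still had whatever androgen other organs make. The labels give neither age nor dose, and they do not say whether each library is a separate animal, so p-values measure the spread between these libraries.

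Total counts ran between 8342000 and 38101526 reads per library. Odc1, a textbook androgen target that encodes ornithine decarboxylase, averaged 188 ± 26.8 CPM in ARLmon testosterone, 202 ± 24.2 CPM in ARLmon vehicle, 1510 ± 119 CPM in WT testosterone and 206 ± 32.4 CPM in WT vehicle libraries (SD, n = 5 each). Odc1 was thus high with testosterone in WT while its ARLmon vehicle and WT vehicle levels lay close together, unlike the 49 members. Libraries GC078604 (WT vehicle) and GC078618 (ARLmon vehicle) lay farthest from the others of their groups; without both, the same thresholds picked 49 genes, of which 44 were members. Proximal tubule markers, which define the main cell type of kidney cortex, summed to between 7014 and 12309 CPM in every library.

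Promoter sequence was examined as a feature that the choice of members did not use. RefSeq windows of GRCm38.p6, from 250 bases before to 50 bases after an annotated start, were present for 32 of the 49 members. The palindromic androgen response element, built of the arms AGAACA and TGTTCT with any 3 bases between them, was searched on both strands and occurred with no mismatch in 0 of 32 members and in 3 of 27025 genes (0.0111%) with such windows. With at most 1 mismatch in its 12 fixed letters it was found in 2 members (6.25%), against 52 of all genes (0.192%), and with at most 2 mismatches in 3 members (9.38%), against 567 of all genes (2.1%). A single arm, AGAACA or its reverse complement TGTTCT, which also lies within the full element, occurred in 7 members (21.9%), against 5750 of all genes (21.3%). These are letter matches and not known binding sites, and no test was made of the counts.

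The 3 windows with an element-like match are printed because they are the only ones among the members, and the Azgp1 window because Azgp1 had the lowest ARLmon vehicle level relative to WT vehicle. Each shows 280 bases, 5′ to 3′ on the gene's strand, beginning 250 bases before the RefSeq start. Capitals mark the match: bases -19 to -5 relative to the start in Nat8, 2 to 16 in Serpinf2, -207 to -193 in Akr1c14, and a single arm at 15 to 20 in Azgp1.
Nat8, chr6:85836828-85837107, minus strand: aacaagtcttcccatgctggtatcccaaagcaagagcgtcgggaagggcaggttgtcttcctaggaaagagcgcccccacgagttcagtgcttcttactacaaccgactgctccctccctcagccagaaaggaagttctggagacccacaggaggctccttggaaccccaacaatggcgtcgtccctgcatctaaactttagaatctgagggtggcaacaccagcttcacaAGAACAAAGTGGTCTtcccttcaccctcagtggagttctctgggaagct
Serpinf2, chr11:75439472-75439751, minus strand: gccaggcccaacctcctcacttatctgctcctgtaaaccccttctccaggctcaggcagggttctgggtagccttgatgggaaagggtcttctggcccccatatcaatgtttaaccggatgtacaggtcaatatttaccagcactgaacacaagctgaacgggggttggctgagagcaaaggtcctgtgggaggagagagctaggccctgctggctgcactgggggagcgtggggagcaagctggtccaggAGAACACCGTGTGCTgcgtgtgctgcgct
Akr1c14, chr13:4059341-4059620, plus strand: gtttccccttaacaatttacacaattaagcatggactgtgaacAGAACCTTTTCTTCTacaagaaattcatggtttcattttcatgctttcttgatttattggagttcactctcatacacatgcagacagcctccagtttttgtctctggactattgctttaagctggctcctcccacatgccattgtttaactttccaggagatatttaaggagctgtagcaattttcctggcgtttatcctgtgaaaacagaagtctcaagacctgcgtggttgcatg
Azgp1, chr5:137981271-137981550, plus strand: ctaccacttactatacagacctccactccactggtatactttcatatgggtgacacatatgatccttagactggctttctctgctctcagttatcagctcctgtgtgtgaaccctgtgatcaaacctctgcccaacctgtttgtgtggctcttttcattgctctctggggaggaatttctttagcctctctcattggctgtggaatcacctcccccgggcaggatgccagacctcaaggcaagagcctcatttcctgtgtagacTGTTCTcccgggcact
The Nat8 match lies at a RefSeq start upstream of the gene's span in the GENCODE M21 annotation (chr6:85830388-85832082). A second Nat8 window, at chr6:85832230-85832529 and thus also upstream of that span, held no such match.

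In the values that chose them, the members differed widely. WT testosterone exceeded WT vehicle by 1.53 to 93.1 times, with a median of 2.53; 35 members stood at least 2 times and 10 at least 4 times higher. ARLmon vehicle lay at 0.111 to 0.498 of WT vehicle, with a median of 0.372, and at or under 0.25 for 10 members. In 41 of 49 members every WT testosterone library lay above every WT vehicle library, against 8.34% of all genes, and in 36 every ARLmon vehicle library lay below every WT vehicle library, against 2.39% of all genes. Both held for 32 members. The choice of members used these contrasts, so the counts only describe them.

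Just inside the limit on the ARLmon vehicle ratio lay Ddit4 at 0.498, Zdhhc2 at 0.494 and Shroom1 at 0.491, and just outside lay Clip4 at 0.501, Bcl6 at 0.501 and C1qtnf3 at 0.509. On the testosterone fold, Zdhhc2 at 1.53, Ddit4 at 1.59 and Anxa13 at 1.59 lay inside, with Cadm1 at 1.48, BC035947 at 1.44 and Etnppl at 1.41 outside. On the minimum level, Ces2h at 5.70 CPM, Kcng1 at 5.99 CPM and Rpl3l at 6.09 CPM lay inside, with Tm4sf4 at 4.96 CPM, Mas1 at 4.79 CPM and Zpld1 at 4.69 CPM outside. Genes on either side of a limit thus differed by little, and single libraries decided membership for some. When each library in turn was left out of the group means, 33 members stayed inside the limits every time and 16 fell outside at least once. Cndp2 was among the 16: without the WT vehicle library GC078604 its ARLmon vehicle mean was 326 CPM, against 593 CPM in WT vehicle, a ratio of 0.549.

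**Figure D1:**
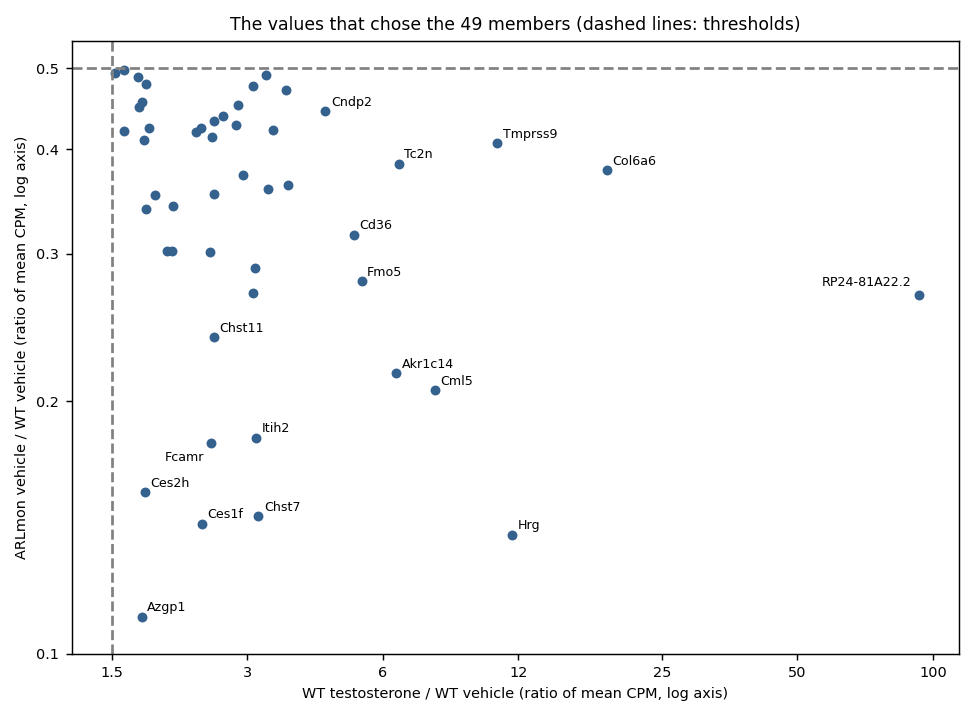
Each of the 49 members by its ARLmon vehicle to WT vehicle ratio (vertical, log axis) and its WT testosterone to WT vehicle ratio (horizontal, log axis) of mean CPM, with dashed lines at the limits of 0.5 and 1.5. RP24-81A22.2 lies far to the right at 93.1 times, Azgp1 lies lowest at 0.111, and members are crowded toward the upper left corner.

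The level of WT vehicle between the extremes varied from gene to gene. On a log scale that sets the ARLmon vehicle mean at 0% and the WT testosterone mean at 100%, the WT vehicle mean stood between 22.5% and 79.7%, with a median of 52.3%. It was under 50% for 23 members and at or above it for 26. Azgp1 at 79.7%, Ces2h at 76.5% and Ces1f at 69.2% were highest: for these, the gap between ARLmon vehicle and WT vehicle was wider than the gap between WT vehicle and WT testosterone. RP24-81A22.2 at 22.5%, Col6a6 at 24.9% and Tmprss9 at 27.5% were lowest, and there the gap to WT testosterone was the wider one.

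ARLmon testosterone kidneys are the 1 group that the choice of members did not use, and they stayed low. All 49 members had a lower fitted level in ARLmon testosterone than in WT vehicle, and edgeR's quasi-likelihood test called 41 of 49 lower and 0 higher at an adjusted p below 0.05, against 1.78% of all genes called lower and 1.25% called higher, or 3.03% in either direction. The median log2 difference of the members was -1.25, against 0.01 over all 15549 genes. In 33 members every ARLmon testosterone library lay below every WT vehicle library, against 2.1% of all genes. WT vehicle was used in choosing the members, which favours members that happened to be high there, so this comparison is only partly independent. ARLmon vehicle was required to be at most 0.5 of WT vehicle, and 0 genes were called between the 2 ARLmon groups. Lower levels in this comparison were thus largely set by the choice of members. Against WT testosterone, which was also used in choosing them, ARLmon testosterone lay lower by 2.64 to 137 times with a median of 6.81; 47 members did not overlap, against 13.1% of all genes, and Ddit4 and Slitrk6 were the exceptions.

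Within ARLmon, no difference between testosterone and vehicle was detected for any member. EdgeR called 0 of 49 members between ARLmon testosterone and ARLmon vehicle, and 0% of all genes. Before adjustment, 2 members had p below 0.05, while 813 of all genes (5.23%) did. The number of genes called was 0 with DESeq2 (844 genes at an unadjusted p below 0.05) and 0 with limma-voom (808 genes). No member separated its ARLmon testosterone from its ARLmon vehicle libraries, against 0.392% of all genes separated upward and 0.386% downward. The fitted difference was above 0 for 40 members and below 0 for 9, against 51.2% of all genes above 0, and its median was 0.19 on the log2 scale, against 0.01 over all genes. ARLmon vehicle had been chosen low, which by itself tends to make this difference positive. The median was 0.08 without the ARLmon testosterone library GC078615 and 0.11 without the ARLmon vehicle library GC078621. A p that misses the threshold does not show equal levels, so the intervals matter: for 40 members the 95% interval of the ARLmon difference lay below a 2-fold rise. For 44 members the upper bound also lay below the WT difference, which is a description only, since a WT difference of at least 1.5 times was required of every member.

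**Figure D2:**
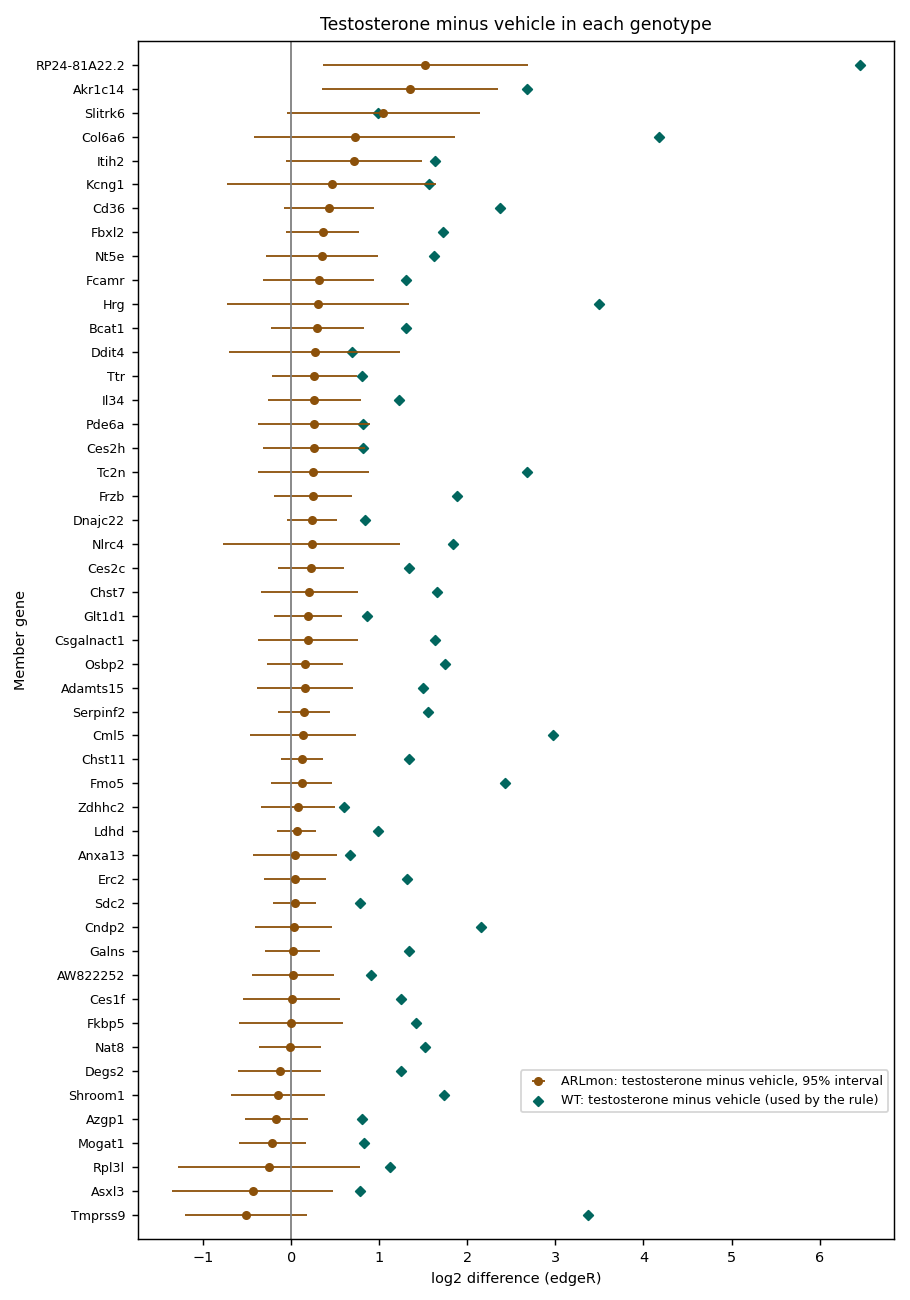
Fitted log2 difference of testosterone minus vehicle for each member: brown points with 95% intervals for ARLmon, and green diamonds for WT, whose values were used to choose the members. Most brown intervals span 0 and stop short of the green diamond, while those of RP24-81A22.2 and Akr1c14 lie above 0.

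The members are described below by known role, an order made for description after their values were seen. Counts called lower within a role stand beside 41 of 49 over all members and 1.78% of all genes. Differences between roles were not tested. In each sentence the 5 values of a group follow the order of the library codes. Comparisons among WT testosterone, WT vehicle and ARLmon vehicle carry no test. Errors after ± are SD of 5 libraries for CPM and SE for log2 differences. Log2 differences are those of ARLmon testosterone minus WT vehicle unless stated otherwise. Since WT vehicle was used in choosing the members, the p-values of this contrast are only partly independent of that choice. ARLmon vehicle was also chosen low against WT vehicle, so these p-values largely follow the choice of members.

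Among 7 enzymes of small-molecule metabolism, 6 were called lower in ARLmon testosterone than in WT vehicle and Akr1c14 was not. Cndp2 is a cytosolic dipeptidase that cleaves many dipeptides, and it was the most abundant member per kilobase of transcript in WT testosterone, at 771 CPM per kb. Cndp2 had 321, 298, 319, 367 and 352 CPM in the ARLmon testosterone libraries and 310.3, 457, 320.3, 273 and 268 CPM in the ARLmon vehicle libraries. WT testosterone libraries held 3397, 3731, 3740.2, 3393 and 2123 CPM of Cndp2, against 619.6, 629, 1292, 536 and 587 CPM in WT vehicle. Both ARLmon groups lay below every WT vehicle library, and the WT vehicle library GC078604 stood well above its group. ARLmon testosterone was lower than WT vehicle (log2 -1.14 ± 0.21, edgeR adjusted p = 0.00228), and its difference from ARLmon vehicle was close to 0 (log2 0.03, 95% interval -0.41 to 0.46).

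Ldhd encodes the mitochondrial dehydrogenase of D-lactate. Ldhd stood at 321, 298, 332, 387 and 338 CPM in ARLmon testosterone and at 292, 379.9, 336, 326 and 272 CPM in ARLmon vehicle libraries. For Ldhd, WT testosterone libraries gave 2051, 2123, 2104, 2465 and 1772 CPM, against 998, 1006, 1211, 1097 and 988 CPM in WT vehicle. The libraries of ARLmon, WT vehicle and WT testosterone formed 3 separate ranges, while the ARLmon groups overlapped. Ldhd was lower in ARLmon testosterone than in WT vehicle (log2 -1.66 ± 0.11, edgeR adjusted p = 9.04e-10), with a narrow interval for the effect of testosterone in ARLmon (log2 0.06, 95% interval -0.16 to 0.28). Its exons overlap those of Znrf1 on the opposite strand, and the strand setting of the counting is not given in the sources used here. Exons of 13 of the 49 members overlap another gene, 1 of them on the same strand. Among those on the opposite strand are Degs2 with Evl, Fbxl2 with Ubp1, Zdhhc2 with Cnot7 and Tmprss9 with Timm13.

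Nat8 encodes an acetyltransferase of kidney and liver that finishes the mercapturic acid route for cysteine conjugates. Nat8 had 63.6, 52.3, 45.9, 45.1 and 71.9 CPM in the ARLmon testosterone libraries and 55.4, 74.7, 47.2, 47.3 and 56.6 CPM in the ARLmon vehicle libraries. The level of Nat8 was 383, 366, 320.2, 355 and 354 CPM in WT testosterone libraries, against 94.9, 138, 181, 98.1 and 109.7 CPM in WT vehicle. Again the ARLmon groups overlapped each other and lay under all WT vehicle libraries (ARLmon testosterone minus WT vehicle: log2 -1.16 ± 0.17, edgeR adjusted p = 2.28e-04). Cml5, which RefSeq names Nat8f5, is a paralog of Nat8, so reads of the family may be shared and both values are uncertain to that extent. Cml5 averaged 2.28 ± 0.563 CPM in ARLmon testosterone, 2.10 ± 0.585 CPM in ARLmon vehicle, 79.6 ± 24.7 CPM in WT testosterone and 10.2 ± 2.93 CPM in WT vehicle libraries, and its WT vehicle mean was 4.85 times that of ARLmon vehicle. It was lower in ARLmon testosterone than in WT vehicle (log2 -2.15 ± 0.25, edgeR adjusted p = 1.36e-05).

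Fmo5 encodes a flavin-containing monooxygenase. Fmo5 stood at 16.8, 22.7, 14.1, 22.3 and 17.8 CPM in ARLmon testosterone and at 16.2, 18.4, 22.4, 14.6 and 14.96 CPM in ARLmon vehicle libraries. For Fmo5, WT testosterone libraries gave 302, 271, 308, 325 and 469 CPM, against 58.4, 60.2, 56.7, 80.7 and 55.3 CPM in WT vehicle. No ARLmon library came near the WT vehicle range, and ARLmon testosterone was lower than WT vehicle (log2 -1.73 ± 0.17, edgeR adjusted p = 5.30e-07). Bcat1, the cytosolic branched-chain aminotransferase, was a member of lower level. Bcat1 averaged 9.62 ± 1.78 CPM in ARLmon testosterone, 7.88 ± 1.16 CPM in ARLmon vehicle, 64.7 ± 28.6 CPM in WT testosterone and 26.1 ± 6.73 CPM in WT vehicle libraries; WT testosterone libraries ranged widely, between 32.7 and 101 CPM, and overlapped WT vehicle. The test called Bcat1 lower in ARLmon testosterone than in WT vehicle (log2 -1.44 ± 0.24, edgeR adjusted p = 9.92e-04).

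Akr1c14 encodes an aldo-keto reductase that in rodents acts as a hydroxysteroid dehydrogenase on dihydrotestosterone. Akr1c14 had 14.8, 26.7, 21.7, 93.9 and 11.5 CPM in the ARLmon testosterone libraries and 11.1, 19.4, 14.4, 18.2 and 3.85 CPM in the ARLmon vehicle libraries. WT testosterone libraries held 377, 333, 364, 498 and 423 CPM of Akr1c14, against 91.2, 58.4, 49.5, 84.9 and 26.1 CPM in WT vehicle. The ARLmon testosterone library GC078615 stood above all WT vehicle libraries, and the other 4 ARLmon testosterone libraries lay at the level of ARLmon vehicle or at the lower edge of WT vehicle. Akr1c14 was 1 of the 8 members not called against WT vehicle (log2 -0.88 ± 0.46, edgeR adjusted p = 0.383). Without GC078615 it was called (log2 -1.74, edgeR adjusted p = 0.0105). It also had the smallest unadjusted p of any member for testosterone in ARLmon, 0.0104 (log2 1.35, 95% interval 0.35 to 2.35; edgeR adjusted p = 0.774), and without GC078615 that difference was 0.49. The gene overlaps exons of Gm18857 on the same strand and belongs to a family of close paralogs.

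All 8 members that cleave esters or handle lipids were called lower in ARLmon testosterone than in WT vehicle. Ces1f, Ces2c and Ces2h encode carboxylesterases, which hydrolyse esters of drugs and lipids, and lie on chromosome 8 in GRCm38 (GENCODE M21), Ces1f at 93256236 to 93279747, Ces2c at 104847068 to 104854483 and Ces2h at 105000853 to 105021178. They belong to a multigene family whose members can share reads. Ces1f stood at 87.7, 72.9, 64.3, 124 and 56.3 CPM in ARLmon testosterone and at 73.3, 124, 96.4, 56.8 and 54.4 CPM in ARLmon vehicle libraries. For Ces1f, WT testosterone libraries gave 1485, 1372, 1384, 1509 and 991 CPM, against 640.0, 679, 793, 443 and 279 CPM in WT vehicle. Every ARLmon library was below every WT vehicle library by a wide margin, although WT vehicle itself spread between 279 and 793 CPM. The difference of Ces1f between ARLmon testosterone and WT vehicle was among the largest (log2 -2.80 ± 0.28, edgeR adjusted p = 1.08e-06), and its 2 ARLmon groups had nearly equal means (log2 0.01, 95% interval -0.54 to 0.55).

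Ces2c averaged 21.2 ± 8.18 CPM in ARLmon testosterone, 18.2 ± 2.26 CPM in ARLmon vehicle, 130.1 ± 13.1 CPM in WT testosterone and 51.5 ± 9.08 CPM in WT vehicle libraries. Ces2h averaged 0.593 ± 0.189 CPM in ARLmon testosterone, 0.5005 ± 0.0921 CPM in ARLmon vehicle, 5.70 ± 1.20 CPM in WT testosterone and 3.21 ± 0.678 CPM in WT vehicle libraries, few reads per library. Both were lower in ARLmon testosterone than in WT vehicle, Ces2c by log2 -1.28 ± 0.18, edgeR adjusted p = 1.14e-04 and Ces2h by log2 -2.41 ± 0.23, edgeR adjusted p = 4.26e-07. Of 6 other Ces genes tested, the 2 most abundant were not called between ARLmon testosterone and WT vehicle: Ces1d averaged 495 CPM in ARLmon testosterone, 547 CPM in ARLmon vehicle, 337 CPM in WT testosterone and 440.4 CPM in WT vehicle libraries, and Ces1e averaged 108 CPM in ARLmon testosterone, 122 CPM in ARLmon vehicle, 139 CPM in WT testosterone and 119 CPM in WT vehicle libraries. Among the 6, 1 was called lower in ARLmon testosterone than in WT vehicle, against 1.78% of all genes. With testosterone in WT, 3 were called lower, against 6.36% of all genes.

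Cd36 encodes a fatty acid transporter and scavenger receptor of the cell surface. Cd36 had 74.5, 71.3, 100.5, 180.1 and 69.7 CPM in the ARLmon testosterone libraries and 44.2, 67.8, 96.8, 79.7 and 79.1 CPM in the ARLmon vehicle libraries. The level of Cd36 was 1274, 1022, 1039.8, 1455 and 1209.9 CPM in WT testosterone libraries, against 229, 193, 162, 249 and 329 CPM in WT vehicle. GC078615 was again the highest ARLmon testosterone library and overlapped WT vehicle, while the other 4 lay below it. The test called Cd36 lower in ARLmon testosterone than in WT vehicle (log2 -1.22 ± 0.25, edgeR adjusted p = 0.00539). Testosterone minus vehicle within ARLmon was log2 0.43, 95% interval -0.08 to 0.94, and 0.10 without GC078615.

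Mogat1, an acyltransferase that makes diacylglycerol, averaged 27.8 ± 5.80 CPM in ARLmon testosterone, 32.3 ± 9.94 CPM in ARLmon vehicle, 139 ± 19.9 CPM in WT testosterone and 78.6 ± 12.6 CPM in WT vehicle libraries. It was lower in ARLmon testosterone than in WT vehicle (log2 -1.504 ± 0.18, edgeR adjusted p = 2.21e-05). Its exons overlap those of BC035947 on the opposite strand, a gene that lay just outside the limit on the testosterone fold. Degs2 encodes a sphingolipid desaturase and hydroxylase. Degs2 averaged 13.9 ± 3.46 CPM in ARLmon testosterone, 15.2 ± 2.87 CPM in ARLmon vehicle, 84.9 ± 13.7 CPM in WT testosterone and 35.8 ± 14.9 CPM in WT vehicle libraries, and its difference was log2 -1.37 ± 0.22, edgeR adjusted p = 6.89e-04. Its relative Degs1 was also called lower in ARLmon testosterone than in WT vehicle, with a smaller difference (log2 -0.39 ± 0.08, edgeR adjusted p = 0.00498), and higher with testosterone in WT.

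Osbp2 encodes an oxysterol-binding protein. Osbp2 averaged 7.46 ± 1.16 CPM in ARLmon testosterone, 6.72 ± 1.13 CPM in ARLmon vehicle, 54.4 ± 5.04 CPM in WT testosterone and 15.9 ± 5.64 CPM in WT vehicle libraries, with a call against WT vehicle (log2 -1.11 ± 0.20, edgeR adjusted p = 0.00165). Zdhhc2 encodes a palmitoyltransferase, which attaches a fatty acid to proteins, and lay near the limits on both ratios. Zdhhc2 stood at 2.85, 2.64, 2.32, 4.26 and 2.03 CPM in ARLmon testosterone and at 2.88, 2.91, 2.49, 2.81 and 2.42 CPM in ARLmon vehicle libraries. For Zdhhc2, WT testosterone libraries gave 7.07, 7.01, 8.88, 10.3 and 8.52 CPM, against 5.45, 4.75, 4.77, 7.82 and 4.55 CPM in WT vehicle. WT testosterone overlapped WT vehicle only at the WT vehicle library GC078605, and all ARLmon libraries lay under WT vehicle (log2 -0.96 ± 0.19, edgeR adjusted p = 0.00528). The call of Zdhhc2 was lost in 1 of 31 alternative analyses.

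All 7 members that build, carry or degrade proteoglycans and glycans were called lower in ARLmon testosterone than in WT vehicle. None of their ARLmon testosterone ranges overlapped WT vehicle, as for 33 of 49 members and 2.1% of all genes. Chondroitin sulfate, a sulfated sugar chain on proteoglycans, is started by Csgalnact1 and sulfated by Chst11 and Chst7. Chst7 had 1.51, 1.17, 1.72, 2.18 and 0.980 CPM in the ARLmon testosterone libraries and 0.623, 1.63, 1.95, 1.26 and 1.15 CPM in the ARLmon vehicle libraries. WT testosterone libraries held 21.1, 30.1, 25.5, 30.6 and 36.5 CPM of Chst7, against 8.38, 10.02, 10.1, 9.93 and 6.83 CPM in WT vehicle. The highest ARLmon library held 2.18 CPM and the lowest WT vehicle library 6.83 CPM (log2 -2.58 ± 0.23, edgeR adjusted p = 1.70e-07). Chst11 averaged 11.02 ± 1.36 CPM in ARLmon testosterone, 10.1 ± 1.19 CPM in ARLmon vehicle, 107 ± 8.81 CPM in WT testosterone and 42.5 ± 6.13 CPM in WT vehicle libraries, and its difference was among the best determined (log2 -1.94 ± 0.11, edgeR adjusted p = 1.28e-10). Csgalnact1 averaged 4.56 ± 1.29 CPM in ARLmon testosterone, 4.01 ± 0.887 CPM in ARLmon vehicle, 43.3 ± 20.2 CPM in WT testosterone and 13.9 ± 2.21 CPM in WT vehicle libraries (log2 -1.60 ± 0.26, edgeR adjusted p = 5.31e-04). Of 8 other Chst genes tested, 0 were called between ARLmon testosterone and WT vehicle. With testosterone in WT, 3 of the 8 were called lower, against 6.36% of all genes. Among these, Chst15 averaged 12.7 ± 2.60 CPM with testosterone in WT, against 23.3 ± 5.33 CPM with vehicle.

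Galns encodes a lysosomal sulfatase that removes sulfate from keratan and chondroitin sulfate. Galns stood at 58.9, 45.3, 39.1, 48.6 and 43.4 CPM in ARLmon testosterone and at 43.8, 66.7, 45.5, 37.2 and 39.2 CPM in ARLmon vehicle libraries. For Galns, WT testosterone libraries gave 261, 292, 267, 294 and 246 CPM, against 105, 101, 139, 109 and 82.4 CPM in WT vehicle. ARLmon groups overlapped each other and stayed under WT vehicle (log2 -1.19 ± 0.15, edgeR adjusted p = 3.24e-05). Sdc2 encodes syndecan, a heparan sulfate proteoglycan of the cell surface. Sdc2 had 42.0, 60.4, 57.2, 59.2 and 55.3 CPM in the ARLmon testosterone libraries and 61.1, 46.2, 48.3, 57.2 and 54.4 CPM in the ARLmon vehicle libraries. The level of Sdc2 was 212, 152, 199, 196 and 183 CPM in WT testosterone libraries, against 114, 116, 119, 115 and 84.6 CPM in WT vehicle. The WT vehicle library GC078606 was the lowest of its group and still above all ARLmon libraries (log2 -0.9999 ± 0.12, edgeR adjusted p = 1.36e-05).

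Adamts15 encodes a metalloproteinase that cleaves proteoglycans. Adamts15 averaged 8.78 ± 1.44 CPM in ARLmon testosterone, 7.82 ± 2.99 CPM in ARLmon vehicle, 51.9 ± 17.3 CPM in WT testosterone and 18.3 ± 4.81 CPM in WT vehicle libraries (log2 -1.07 ± 0.25, edgeR adjusted p = 0.0190). Its call was lost without GC078605, GC078615 or GC078616, with edgeR adjusted p between 0.0521 and 0.0736. Glt1d1, named for a glycosyltransferase domain, averaged 8.005 ± 1.99 CPM in ARLmon testosterone, 6.99 ± 1.54 CPM in ARLmon vehicle, 29.9 ± 2.31 CPM in WT testosterone and 16.5 ± 3.69 CPM in WT vehicle libraries (log2 -1.04 ± 0.18, edgeR adjusted p = 0.00124).

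Of 8 secreted proteins, 7 were called lower in ARLmon testosterone than in WT vehicle and Col6a6 was not. Azgp1 encodes zinc-alpha-glycoprotein, a plasma and tissue protein known for lipid mobilisation, and had the lowest ARLmon vehicle to WT vehicle ratio of all members, 0.111. Azgp1 stood at 7.03, 6.21, 8.15, 7.40 and 10.9 CPM in ARLmon testosterone and at 8.41, 9.67, 10.01, 10.3 and 6.32 CPM in ARLmon vehicle libraries. For Azgp1, WT testosterone libraries gave 166, 132, 176, 134 and 99.6 CPM, against 77.1, 90.4, 89.5, 69.4 and 77.9 CPM in WT vehicle. The 10 ARLmon libraries reached at most 10.9 CPM, and the lowest WT vehicle library held 69.4 CPM. Azgp1 had the largest difference of any member between ARLmon testosterone and WT vehicle (log2 -3.35 ± 0.17, edgeR adjusted p = 2.44e-11). It stood 1.75 times higher in WT testosterone than in WT vehicle.

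Serpinf2 encodes alpha-antiplasmin, the main plasma inhibitor of plasmin. Serpinf2 had 101, 71.7, 102, 76.3 and 77.6 CPM in the ARLmon testosterone libraries and 71.6, 111, 65.4, 77.8 and 62.4 CPM in the ARLmon vehicle libraries. WT testosterone libraries held 635, 572, 588, 644 and 619.7 CPM of Serpinf2, against 171, 199, 256, 201 and 214 CPM in WT vehicle. Its libraries formed separate ranges for ARLmon, WT vehicle and WT testosterone (log2 -1.28 ± 0.14, edgeR adjusted p = 6.05e-06). Serpinf1, its only other family member by name, was called neither between ARLmon testosterone and WT vehicle nor between the ARLmon groups.

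Hrg encodes histidine-rich glycoprotein, a plasma protein made mainly by liver. Hrg stood at 0.356, 0.234, 0.150, 0.304 and 0.196 CPM in ARLmon testosterone and at 0.312, 0.0856, 0.134, 0.287 and 0.165 CPM in ARLmon vehicle libraries. For Hrg, WT testosterone libraries gave 23.2, 13.5, 16.8, 16.5 and 12.4 CPM, against 2.31, 1.62, 1.51, 1.08 and 0.569 CPM in WT vehicle. The ARLmon libraries rested on 1 to 6 reads each, so their levels are imprecise, but none reached the lowest WT vehicle library. ARLmon testosterone was lower than WT vehicle (log2 -2.52 ± 0.35, edgeR adjusted p = 1.23e-04). Itih2 encodes a heavy chain of inter-alpha-inhibitor, which binds hyaluronan. Itih2 had 2.22, 1.05, 1.496, 1.98 and 1.31 CPM in the ARLmon testosterone libraries and 0.935, 0.941, 1.81, 0.459 and 0.770 CPM in the ARLmon vehicle libraries. The level of Itih2 was 9.92, 22.7, 14.2, 23.5 and 14.9 CPM in WT testosterone libraries, against 8.38, 5.69, 4.93, 5.43 and 2.73 CPM in WT vehicle. ARLmon libraries lay below every WT vehicle library (log2 -1.78 ± 0.32, edgeR adjusted p = 0.00150). Itih2 had the fourth smallest unadjusted p for testosterone in ARLmon, 0.0673 (log2 0.71, 95% interval -0.06 to 1.48; edgeR adjusted p = 0.774). Of its 4 tested relatives, Itih1 was also called lower in ARLmon testosterone than in WT vehicle (log2 -0.83 ± 0.19, edgeR adjusted p = 0.0132).

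Ttr encodes transthyretin, the carrier of thyroxine and retinol-binding protein. Ttr averaged 37.0 ± 11.03 CPM in ARLmon testosterone, 30.8 ± 10.3 CPM in ARLmon vehicle, 118 ± 13.9 CPM in WT testosterone and 67.6 ± 21.05 CPM in WT vehicle libraries (log2 -0.88 ± 0.23, edgeR adjusted p = 0.0362). Its call was lost when any 1 of the libraries GC078604, GC078605, GC078613, GC078614, GC078615 and GC078616 was left out, with edgeR adjusted p between 0.0682 and 0.121. Frzb encodes a secreted antagonist of Wnt ligands. Frzb averaged 8.58 ± 2.32 CPM in ARLmon testosterone, 7.20 ± 0.831 CPM in ARLmon vehicle, 55.8 ± 8.81 CPM in WT testosterone and 15.3 ± 4.93 CPM in WT vehicle libraries (log2 -0.82 ± 0.21, edgeR adjusted p = 0.0290), and the call was lost without GC078605, GC078606, GC078614 or GC078616 (edgeR adjusted p between 0.0748 and 0.0998).

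Il34 encodes a ligand of the macrophage receptor Csf1r. Il34 averaged 8.69 ± 3.86 CPM in ARLmon testosterone, 7.18 ± 1.09 CPM in ARLmon vehicle, 39.4 ± 4.75 CPM in WT testosterone and 17.1 ± 7.56 CPM in WT vehicle libraries (log2 -0.97 ± 0.24, edgeR adjusted p = 0.0304). The call did not hold without GC078606, GC078613, GC078614, GC078615 or GC078616 (edgeR adjusted p between 0.0787 and 0.0927). Col6a6 encodes a chain of collagen VI and stood 18.9 times higher in WT testosterone than in WT vehicle. Col6a6 averaged 0.680 ± 0.423 CPM in ARLmon testosterone, 0.399 ± 0.308 CPM in ARLmon vehicle, 19.9 ± 9.34 CPM in WT testosterone and 1.06 ± 0.428 CPM in WT vehicle libraries, with no call between ARLmon testosterone and WT vehicle (log2 -0.65 ± 0.46, edgeR adjusted p = 0.555).

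Of 9 membrane and signalling proteins, 5 were called lower in ARLmon testosterone than in WT vehicle. Nt5e encodes the ectonucleotidase that turns AMP into adenosine and is known in proximal tubule and interstitial cells of the kidney. Nt5e stood at 38.7, 33.7, 43.2, 51.4 and 26.3 CPM in ARLmon testosterone and at 28.7, 25.4, 33.1, 42.6 and 21.6 CPM in ARLmon vehicle libraries. For Nt5e, WT testosterone libraries gave 159.7, 103, 156, 223 and 339.7 CPM, against 62.9, 62.9, 27.5, 106 and 59.2 CPM in WT vehicle. The WT vehicle libraries spread between 27.5 and 106 CPM and overlapped all other groups. Nt5e was not called against WT vehicle (log2 -0.72 ± 0.30, edgeR adjusted p = 0.251).

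Slitrk6 encodes a transmembrane protein known from neurons. Slitrk6 had 1.69, 1.64, 0.973, 7.40 and 1.05 CPM in the ARLmon testosterone libraries and 1.25, 0.941, 1.81, 1.38 and 0.990 CPM in the ARLmon vehicle libraries. WT testosterone libraries held 5.30, 9.79, 6.89, 8.34 and 12.6 CPM of Slitrk6, against 3.81, 3.60, 1.96, 9.17 and 2.50 CPM in WT vehicle. A single library in each of 2 groups stood apart, GC078615 in ARLmon testosterone and GC078605 in WT vehicle. Slitrk6 was not called against WT vehicle (log2 -0.71 ± 0.47, edgeR adjusted p = 0.515), but was without GC078615 (log2 -1.70, edgeR adjusted p = 0.0209). Its unadjusted p for testosterone in ARLmon was 0.0605 (log2 1.04, 95% interval -0.05 to 2.14), and without GC078615 that difference was 0.06.

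Fcamr encodes an Fc receptor for IgA and IgM. Fcamr averaged 2.08 ± 0.798 CPM in ARLmon testosterone, 1.70 ± 0.723 CPM in ARLmon vehicle, 23.7 ± 3.21 CPM in WT testosterone and 9.52 ± 1.94 CPM in WT vehicle libraries, and ARLmon testosterone was lower than WT vehicle (log2 -2.20 ± 0.27, edgeR adjusted p = 2.21e-05). Pde6a encodes the catalytic subunit of the photoreceptor cGMP phosphodiesterase. Pde6a averaged 4.72 ± 1.31 CPM in ARLmon testosterone, 4.02 ± 1.11 CPM in ARLmon vehicle, 21.1 ± 6.06 CPM in WT testosterone and 11.8 ± 4.81 CPM in WT vehicle libraries (log2 -1.33 ± 0.29, edgeR adjusted p = 0.00996). The call of Pde6a was lost in 2 of 31 alternative analyses. Anxa13, a calcium-dependent membrane-binding annexin of epithelia, averaged 3.17 ± 0.495 CPM in ARLmon testosterone, 3.12 ± 0.968 CPM in ARLmon vehicle, 11.8 ± 3.02 CPM in WT testosterone and 7.43 ± 1.78 CPM in WT vehicle libraries (log2 -1.23 ± 0.22, edgeR adjusted p = 0.00164).

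Tc2n is named for its tandem C2 domains. Tc2n averaged 1.92 ± 0.502 CPM in ARLmon testosterone, 1.62 ± 0.905 CPM in ARLmon vehicle, 27.4 ± 5.05 CPM in WT testosterone and 4.22 ± 1.15 CPM in WT vehicle libraries (log2 -1.13 ± 0.27, edgeR adjusted p = 0.0244). The call was lost without GC078602, GC078605, GC078612, GC078614 or GC078616 (edgeR adjusted p between 0.0509 and 0.0664). Tmprss9 encodes a membrane serine protease and stood 10.8 times higher in WT testosterone than in WT vehicle. Tmprss9 averaged 0.280 ± 0.0981 CPM in ARLmon testosterone, 0.391 ± 0.0972 CPM in ARLmon vehicle, 10.4 ± 2.03 CPM in WT testosterone and 0.963 ± 0.290 CPM in WT vehicle libraries. It was lower in ARLmon testosterone than in WT vehicle (log2 -1.83 ± 0.28, edgeR adjusted p = 3.81e-04) and had the most negative ARLmon difference of testosterone minus vehicle (log2 -0.52, 95% interval -1.21 to 0.17). The ARLmon libraries held between 3 and 9 reads of Tmprss9 each, so these levels are imprecise.

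Kcng1 encodes a modifying subunit of voltage-gated potassium channels, and Nlrc4 an inflammasome sensor. Kcng1 averaged 0.654 ± 0.391 CPM in ARLmon testosterone, 0.523 ± 0.550 CPM in ARLmon vehicle, 5.99 ± 1.90 CPM in WT testosterone and 1.94 ± 0.956 CPM in WT vehicle libraries. Nlrc4 averaged 0.834 ± 0.453 CPM in ARLmon testosterone, 0.739 ± 0.405 CPM in ARLmon vehicle, 7.54 ± 1.11 CPM in WT testosterone and 2.04 ± 1.11 CPM in WT vehicle libraries. Neither was called against WT vehicle, Kcng1 with log2 -1.56 ± 0.47, edgeR adjusted p = 0.0820 and Nlrc4 with log2 -1.33 ± 0.42, edgeR adjusted p = 0.0970. DESeq2 called both (adjusted p = 0.0277 for Kcng1 and 0.0344 for Nlrc4). In edgeR, Kcng1 was called without GC078606 or GC078618 (adjusted p = 0.0331 and 0.0369) and Nlrc4 without GC078604 (adjusted p = 0.0403).

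Of the remaining 10 members, which include chaperones and regulators, 8 were called lower in ARLmon testosterone than in WT vehicle. Fkbp5 encodes a co-chaperone of steroid hormone receptors that steroid hormones induce in many tissues. Fkbp5 averaged 29.3 ± 7.33 CPM in ARLmon testosterone, 29.4 ± 4.25 CPM in ARLmon vehicle, 178 ± 50.8 CPM in WT testosterone and 67.0 ± 39.1 CPM in WT vehicle libraries, and the WT vehicle libraries ranged between 35.5 and 128 CPM. Fkbp5 was called lower in ARLmon testosterone than in WT vehicle (log2 -1.18 ± 0.28, edgeR adjusted p = 0.0201), a call lost without GC078605, GC078606, GC078612, GC078613 or GC078614 (edgeR adjusted p between 0.0546 and 0.0658).

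Ddit4 encodes an inhibitor of the growth kinase mTORC1 that stress and glucocorticoids induce, and lay closest to the limit on the ARLmon vehicle ratio. Ddit4 stood at 26.2, 16.9, 21.8, 13.8 and 19.3 CPM in ARLmon testosterone and at 13.2, 17.4, 18.1, 14.9 and 17.5 CPM in ARLmon vehicle libraries. For Ddit4, WT testosterone libraries gave 15.6, 21.8, 35.5, 47.5 and 139 CPM, against 15.6, 22.7, 14.1, 56.0 and 54.4 CPM in WT vehicle. All 4 groups overlapped, and the WT testosterone mean rested largely on GC078611: without it the mean was 30.1 CPM, against 32.6 CPM in WT vehicle, so that the direction turned and Ddit4 no longer met the limits. No call was made against WT vehicle (log2 -0.73 ± 0.46, edgeR adjusted p = 0.491). Dnajc22, a membrane protein of the DnaJ co-chaperone family, averaged 42.1 ± 6.35 CPM in ARLmon testosterone, 35.8 ± 7.37 CPM in ARLmon vehicle, 133 ± 12.2 CPM in WT testosterone and 74.7 ± 10.8 CPM in WT vehicle libraries (log2 -0.83 ± 0.14, edgeR adjusted p = 7.44e-04).

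Fbxl2 encodes a substrate adaptor of a ubiquitin ligase. Fbxl2 averaged 2.62 ± 0.566 CPM in ARLmon testosterone, 2.05 ± 0.586 CPM in ARLmon vehicle, 19.1 ± 2.43 CPM in WT testosterone and 5.72 ± 1.000 CPM in WT vehicle libraries (log2 -1.14 ± 0.18, edgeR adjusted p = 5.87e-04). Shroom1 belongs to a family of actin-binding proteins. Shroom1 had 1.16, 1.29, 1.42, 1.06 and 0.523 CPM in the ARLmon testosterone libraries and 1.01, 1.20, 1.08, 1.72 and 0.990 CPM in the ARLmon vehicle libraries. The level of Shroom1 was 7.07, 9.07, 7.69, 7.53 and 9.01 CPM in WT testosterone libraries, against 3.24, 2.35, 2.69, 1.55 and 2.39 CPM in WT vehicle. ARLmon testosterone lay below every WT vehicle library, whereas 1 ARLmon vehicle library overlapped them (log2 -1.15 ± 0.24, edgeR adjusted p = 0.00630). The call of Shroom1 was lost in 1 of 31 alternative analyses. Erc2 encodes a scaffold of presynaptic active zones. Erc2 averaged 6.17 ± 1.44 CPM in ARLmon testosterone, 6.07 ± 0.894 CPM in ARLmon vehicle, 36.6 ± 4.31 CPM in WT testosterone and 14.6 ± 3.18 CPM in WT vehicle libraries (log2 -1.25 ± 0.16, edgeR adjusted p = 5.09e-05).

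Asxl3, a chromatin regulator of the Polycomb system, had the lowest WT testosterone level per kilobase, 0.455 CPM per kb. Asxl3 averaged 1.38 ± 0.625 CPM in ARLmon testosterone, 1.84 ± 1.31 CPM in ARLmon vehicle, 7.07 ± 0.957 CPM in WT testosterone and 4.10 ± 1.25 CPM in WT vehicle libraries (log2 -1.58 ± 0.41, edgeR adjusted p = 0.0369). Rpl3l encodes a ribosomal protein paralog known from muscle. Rpl3l averaged 0.894 ± 0.443 CPM in ARLmon testosterone, 1.02 ± 0.303 CPM in ARLmon vehicle, 6.09 ± 1.87 CPM in WT testosterone and 2.97 ± 2.47 CPM in WT vehicle libraries (log2 -1.70 ± 0.45, edgeR adjusted p = 0.0413). These calls were unstable: Asxl3 lost its call when any 1 of 7 libraries (GC078602, GC078603, GC078605, GC078612, GC078613, GC078615 and GC078616) was left out, with edgeR adjusted p up to 0.103. Rpl3l lost its call when any 1 of 11 libraries (GC078605 to GC078610, GC078613 to GC078616 and GC078619) was left out, with edgeR adjusted p up to 0.119. AW822252 is annotated as a transcribed pseudogene. AW822252 averaged 1.98 ± 0.658 CPM in ARLmon testosterone, 1.92 ± 0.388 CPM in ARLmon vehicle, 10.1 ± 2.05 CPM in WT testosterone and 5.43 ± 0.812 CPM in WT vehicle libraries (log2 -1.47 ± 0.21, edgeR adjusted p = 1.23e-04).

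RP24-81A22.2 carries a clone-based name and matched neither annotation, so neither position nor role is given. RP24-81A22.2 stood at 0.0889, 1.17, 1.05, 2.23 and 0.327 CPM in ARLmon testosterone and at 0.701, 0.513, 0.202, 0.115 and 0.385 CPM in ARLmon vehicle libraries. For RP24-81A22.2, WT testosterone libraries gave 121, 126, 109, 167 and 143 CPM, against 1.08, 0.888, 1.43, 2.40 and 1.37 CPM in WT vehicle. It was close to absent outside WT testosterone, where it exceeded WT vehicle by 93.1 times, the largest fold of any member. ARLmon testosterone overlapped WT vehicle and was not called against it (log2 -0.51 ± 0.41, edgeR adjusted p = 0.618). For testosterone in ARLmon its unadjusted p was 0.0128 (log2 1.52, 95% interval 0.36 to 2.69; edgeR adjusted p = 0.774). The ARLmon testosterone libraries held between 1 and 44 reads, with 44 in GC078615, and the ARLmon vehicle libraries between 2 and 9. Without GC078615 that difference was 0.92, and the difference from WT vehicle -1.11.

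**Figure D3:**
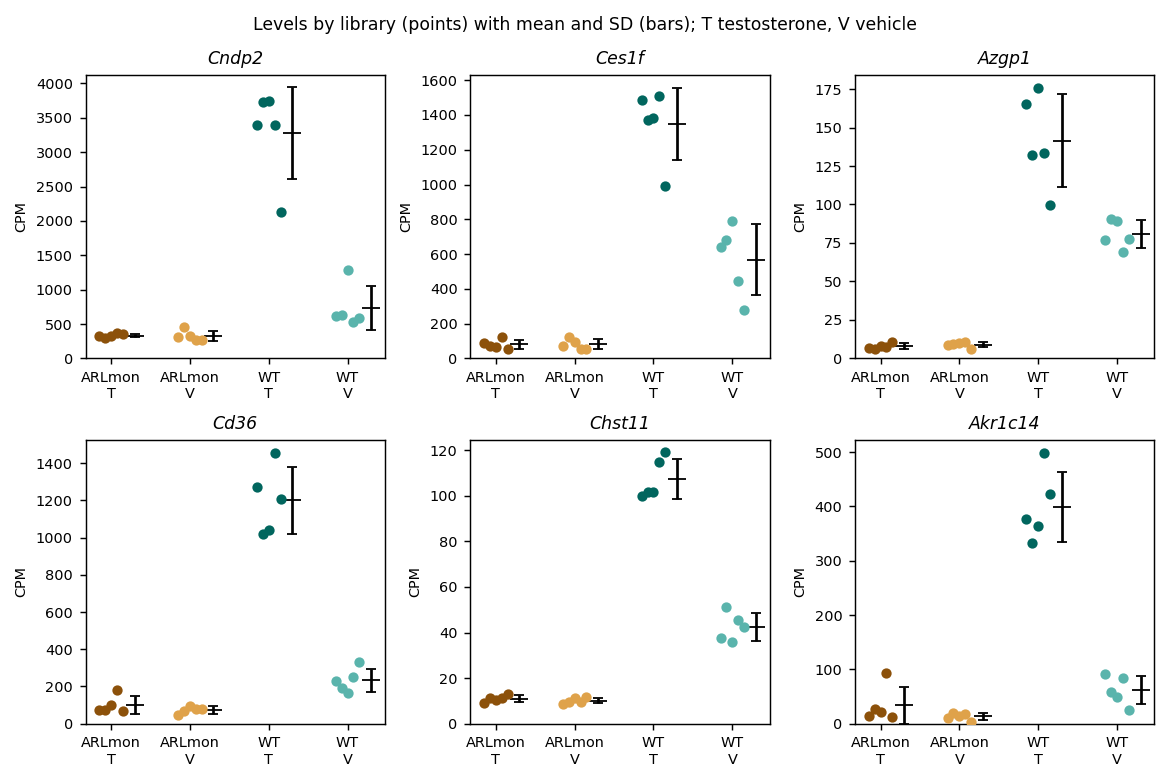
CPM in every library for Cndp2, Ces1f, Azgp1, Cd36, Chst11 and Akr1c14 in the groups ARLmon testosterone, ARLmon vehicle, WT testosterone and WT vehicle (points), with mean and SD (bars). ARLmon points lie under the WT vehicle points in most panels, with 1 ARLmon testosterone library at 93.9 CPM for Akr1c14 and at 180.1 CPM for Cd36.

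The members were also summarised library by library. For each library the median over members of the log2 ratio to the WT vehicle mean (0.5 CPM added to both) was taken. It lay between -1.37 and -1.14 in ARLmon testosterone, between -1.60 and -1.27 in ARLmon vehicle, between 1.22 and 1.498 in WT testosterone and between -0.30 and 0.17 in WT vehicle libraries. The ranges of the 2 ARLmon groups overlapped. The distance of ARLmon vehicle and of WT testosterone from WT vehicle was fixed by the choice of members. Within groups, single libraries were often at the end of the range: GC078615 was highest of the ARLmon testosterone libraries for 19 members, GC078621 lowest of the ARLmon vehicle libraries for 21, GC078610 highest of the WT testosterone libraries for 23, and GC078605 highest and GC078606 lowest of the WT vehicle libraries for 17 and 25.

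**Figure D4:**
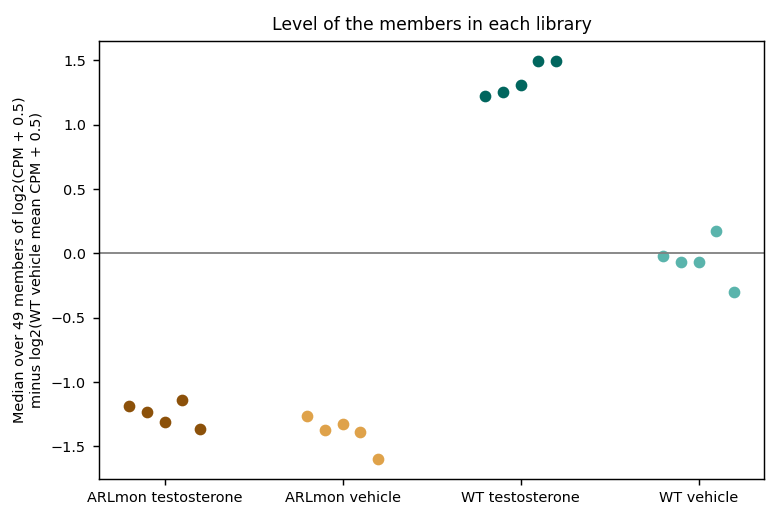
Median over the 49 members of the log2 ratio to the WT vehicle mean (vertical axis, 0.5 CPM added) in each of the 20 libraries, by group. All ARLmon points lie at or below -1.14, the WT testosterone points at or above 1.22 and the WT vehicle points between -0.30 and 0.17.

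**Figure D5:**
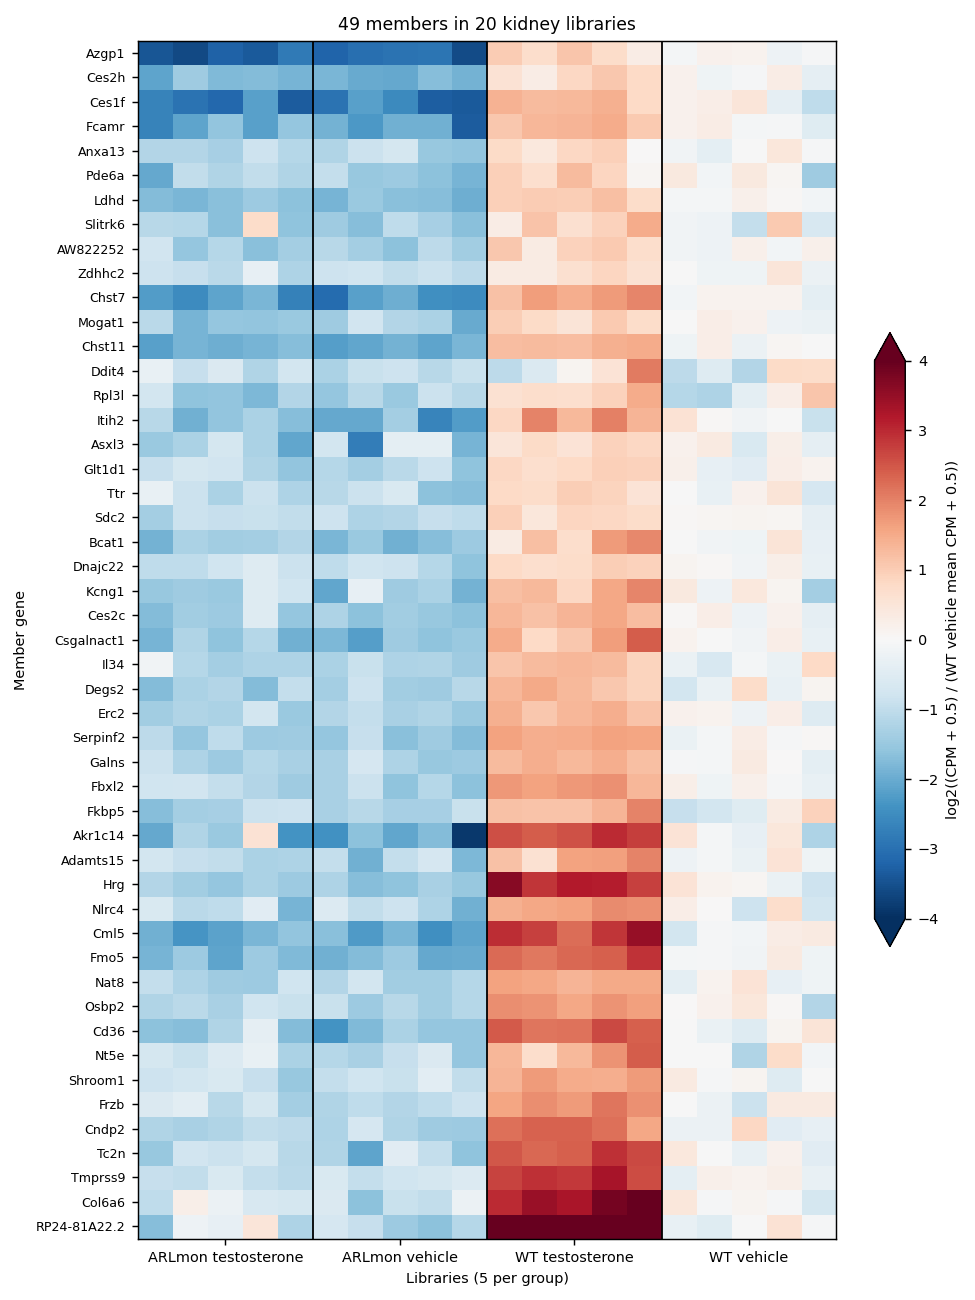
Log2 ratio of each member (rows, ordered by the place of WT vehicle between ARLmon vehicle and WT testosterone) to its WT vehicle mean in the 20 libraries (columns, by group), blue for lower and red for higher, with the colour scale ending at -4 and 4. Most ARLmon cells are blue with and without testosterone, with exceptions such as Akr1c14, Slitrk6 and RP24-81A22.2 in the ARLmon testosterone library GC078615. Most WT testosterone cells are red, but those of Ddit4 in GC078607 and GC078608 are blue. WT testosterone cells pass the end of the scale for RP24-81A22.2 and, in GC078611, for Col6a6.

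Cell type markers were read beside these results. Markers of the straight proximal tubule, where many androgen-regulated genes are expressed (Slc7a13, Slc22a30, Cyp7b1, Atp11a and Slc5a10), summed to between 365.7 and 831 CPM in ARLmon testosterone, 266 and 477 CPM in ARLmon vehicle, 4400.5 and 5661 CPM in WT testosterone and 685 and 1276 CPM in WT vehicle libraries. Slc7a13 and Cyp7b1 were near 0 in ARLmon testosterone, at 2.79 and 3.46 CPM, against 169.8 and 94.6 CPM in WT vehicle. Slc22a30 averaged 13.4 CPM in ARLmon testosterone, against 60.7 CPM in WT vehicle, and Atp11a 355 CPM, against 459 CPM in WT vehicle. Slc5a10 averaged 178 CPM in ARLmon testosterone, 169 CPM in ARLmon vehicle, 223 CPM in WT testosterone and 198 CPM in WT vehicle libraries, a far narrower range than the other 4. All 5 were detected, and 3 of 5 were called lower in ARLmon testosterone than in WT vehicle, against 1.78% of all genes. Of these markers, Slc7a13, Slc22a30, Cyp7b1 and Atp11a met the thresholds of the set themselves and were left out only by symbol. Their order in WT testosterone, WT vehicle and ARLmon vehicle was thus fixed by those thresholds. Most of the 5 markers were called higher with testosterone in WT (4 of 5, against 9.36% of all genes), and their part in the result was not tested. In bulk tissue, fewer cells of a type and less RNA per cell cannot be told apart. General proximal tubule markers summed to between 9095 and 10538 CPM in ARLmon testosterone, 8141 and 9706 CPM in ARLmon vehicle, 9741 and 11655 CPM in WT testosterone and 7014 and 12309 CPM in WT vehicle libraries, so the groups overlapped. Of these 6 markers, 1 was called lower in ARLmon testosterone than in WT vehicle, against 1.78% of all genes.

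Markers of other kidney cells gave no calls between ARLmon testosterone and WT vehicle except 1 distal convoluted tubule gene, which was higher. In the contrasts that chose the members they did move. With testosterone in WT, 5 of 5 podocyte, 3 of 5 smooth muscle and renin cell and 1 of 5 endothelial markers were called lower, against 6.36% of all genes. There, 1 macrophage marker was called higher, against 9.36% of all genes. In ARLmon vehicle, 2 of 3 distal convoluted tubule, 2 of 4 intercalated cell and 1 of 5 podocyte markers were called higher than in WT vehicle, against 1.99% of all genes. Their part in the result was not tested. Podocyte markers summed to between 507 and 623 CPM in ARLmon testosterone, 539.7 and 665 CPM in ARLmon vehicle, 292 and 363 CPM in WT testosterone and 379.6 and 573 CPM in WT vehicle libraries. Of 5 adrenal cortex markers, 4 had too few reads to be tested, and the list's sum reached at most 1.96 CPM in ARLmon testosterone, 11.4 CPM in ARLmon vehicle, 1.69 CPM in WT testosterone and 1.51 CPM in WT vehicle libraries. Tubular injury genes summed to between 2560.0 and 8364 CPM in ARLmon testosterone, 3135 and 3774 CPM in ARLmon vehicle, 1011 and 1522 CPM in WT testosterone and 1957 and 3986 CPM in WT vehicle libraries, with 0 of 7 called between ARLmon testosterone and WT vehicle.

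Other androgen-regulated kidney genes were listed from textbook knowledge, with earlier results of these data known, and none of them was a member. Among the androgen-induced genes, several met the thresholds of the set and were left out only by symbol. These were Slco1a1, Cyp7b1, Acsm3, Adh1, Slc7a13, Cyp2j13, Cyp4b1, Cyp4a12a, Cyp2e1 and Pzp. Their order in the WT groups and ARLmon vehicle was thus fixed by the thresholds, and the counts of this list only describe it. With testosterone in WT, 17 of 20 androgen-induced genes were called higher (9.36% of all genes) and 1 was called lower (6.36%). Ren1 and Oat averaged less with testosterone than with vehicle in WT, Ren1 at 85.8 against 130 CPM and Oat at 146 against 251 CPM. Of the androgen-lowered genes, 8 of 8 were called lower with testosterone in WT. Of the 20 androgen-induced genes, 13 were called lower and 1 higher in ARLmon testosterone than in WT vehicle, against 1.78% and 1.25% of all genes. Between ARLmon testosterone and ARLmon vehicle, 0 of the 20 were called. Their median log2 difference from WT vehicle was -1.94 in ARLmon testosterone, against 0.01 over all genes. Of 8 androgen-lowered genes, 4 were called higher and 0 lower in ARLmon testosterone than in WT vehicle. Kap, the kidney androgen-regulated protein, averaged 6450.5 ± 1307 CPM in ARLmon testosterone, 8184 ± 4642 CPM in ARLmon vehicle, 39464 ± 5353 CPM in WT testosterone and 14797 ± 7845 CPM in WT vehicle libraries, and was called lower in ARLmon testosterone than in WT vehicle (log2 -1.20, edgeR adjusted p = 0.0387).

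Tested genes that share a symbol stem with a member were read beside it. A shared stem is a match of names and need not mean a common gene family. A gene of the same stem was called lower in ARLmon testosterone than in WT vehicle for the stems Ces, Cml, Degs, Itih and Nat. These were 5 of 292 such genes in all, against 1.78% of all genes. Another 7 of the 292 were called higher, against 1.25% of all genes: 3 with the stem Akr and 1 each with Adamts, Col, Pde and Tmprss. Of 4 other Fmo genes, 2 were called lower with testosterone in WT, against 6.36% of all genes, including Fmo1 (479 ± 36.0 CPM with testosterone, against 677 ± 122 CPM with vehicle). Cml2, a relative of Cml5 and Nat8, was called lower in ARLmon testosterone than in WT vehicle, at 19.9 ± 3.28 CPM in ARLmon testosterone, 20.9 ± 4.97 CPM in ARLmon vehicle, 63.2 ± 12.7 CPM in WT testosterone and 54.7 ± 4.02 CPM in WT vehicle libraries. Unlike Cml5, its WT testosterone and WT vehicle levels lay close together. Cndp1, the relative of Cndp2, averaged 51.4 ± 9.61 CPM in ARLmon testosterone, 42.7 ± 9.39 CPM in ARLmon vehicle, 102 ± 13.2 CPM in WT testosterone and 59.1 ± 23.6 CPM in WT vehicle libraries and was called higher with testosterone in WT.

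Non-members were also ranked by how closely their log2 CPM over the 20 libraries followed the mean pattern of the members. Genes left out by symbol were not ranked, including those that met all thresholds. The 5 highest of the ranked genes were Acox3, Fuca2, Tm7sf3, Tmigd1 and Lap3, with Pearson r of 0.990, 0.990, 0.988, 0.984 and 0.983. These values describe libraries that share groups and carry no test. Acox3, a peroxisomal acyl-CoA oxidase, averaged 144 CPM in ARLmon testosterone, 131 CPM in ARLmon vehicle, 441 CPM in WT testosterone and 224 CPM in WT vehicle libraries. Lap3, a leucine aminopeptidase, averaged 248 CPM in ARLmon testosterone, 232 CPM in ARLmon vehicle, 897 CPM in WT testosterone and 400.0 CPM in WT vehicle libraries. Their ARLmon vehicle means lay above 0.5 of WT vehicle, which kept all 5 outside the set.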

How the data were processed

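Kidney poly(A) RNA had been sequenced with a stranded kit on an Illumina instrument, per the labels' protocols. The submitters' processing notes list the build mm10, the aligner HISAT2, the counter HTSeq 2.7.14 (version as given), DESeq2, SAMtools 1.5 and FastQC 0.11.7; settings, annotation and counting strand are not given in the sources used here. The authors deposited 4 tables of raw read counts, each with 10 libraries, and 1 table of log2 values whose normalization is not stated, used only as an alternative.

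The tables agreed wherever they shared a library and were joined into 24762 genes; 12045 absent values in 1713 genes were set to 0. Columns carry library codes whose groups the log2 table's header gives. The joined counts entered edgeR 4.0.16, run under R 4.3.3, with its default low-count filter and TMM scaling (quasi-likelihood fit of 4 group means to all 20 libraries, 16 residual degrees of freedom, Benjamini-Hochberg adjustment over 15549 genes); the fit was tested on simulated data. SE is the log2 difference over the square root of F. Alternatives used DESeq2 1.42.0 and limma 3.58.1. Figures used matplotlib 3.10.9. Libraries of 1 group differed by more than sampling noise (chi-square per degree of freedom at least 5.23).

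The members and gene lists were chosen with earlier results of these data known. All members are named; values in every library are given for the 10 highest in WT testosterone, the 4 with the smallest p in ARLmon testosterone minus vehicle, and the 4 highest and 4 lowest ARLmon vehicle ratios. The level of the targeted gene is not reported here.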

Additional observations from a re-analysis of the deposited data

Results flagged for a closer look

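A member's value was marked when the highest or lowest of the 5 libraries in a group lay apart from the other 4 by more than Dixon's 95% criterion (a gap over 0.71 of the group's range). Of 196 member-by-group sets of values, 23 (11.7%) were marked, 18 high and 5 low, while chance marks about 1 in 20. The libraries with most marks were GC078611 with 5, and GC078605 and GC078615 with 4 each. No explanation was tested. ARLmon testosterone library GC078615 stood apart for Cd36 at 180.1 CPM (others 69.7 to 100.5), Akr1c14 at 93.9 CPM (others 11.5 to 26.7), Ces2c at 35.5 CPM (others 15.2 to 19.3) and Slitrk6 at 7.40 CPM (others 0.973 to 1.69). ARLmon testosterone library GC078612 stood apart for Sdc2 at 42.0 CPM (others 55.3 to 60.4), Il34 at 15.6 CPM (others 6.43 to 7.499) and Pde6a at 2.49 CPM (others 4.86 to 5.68). ARLmon testosterone library GC078614 stood apart for Tmprss9 at 0.449 CPM (others 0.196 to 0.267). ARLmon vehicle library GC078618 stood apart for Cndp2 at 457 CPM (others 268 to 320.3) and Galns at 66.7 CPM (others 37.2 to 45.5). ARLmon vehicle library GC078620 stood apart for Shroom1 at 1.72 CPM (others 0.990 to 1.20). WT testosterone library GC078611 stood apart for Cndp2 at 2123 CPM (others 3393 to 3740.2), Ces1f at 991 CPM (others 1372 to 1509), Fmo5 at 469 CPM (others 271 to 325), Fkbp5 at 267 CPM (others 148 to 173) and Ddit4 at 139 CPM (others 15.6 to 47.5). WT vehicle library GC078605 stood apart for Fmo5 at 80.7 CPM (others 55.3 to 60.2), Adamts15 at 26.8 CPM (others 15.2 to 17.3), Slitrk6 at 9.17 CPM (others 1.96 to 3.81) and Zdhhc2 at 7.82 CPM (others 4.55 to 5.45). WT vehicle library GC078604 stood apart for Cndp2 at 1292 CPM (others 536 to 629). WT vehicle library GC078606 stood apart for Sdc2 at 84.6 CPM (others 114 to 119) and Il34 at 30.2 CPM (others 10.8 to 16.3).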

How the results depend on the processing

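Of the 41 members called lower in ARLmon testosterone than in WT vehicle, 30 were called the same way under every alternative tried, and all 49 kept the same sign in that contrast. The count of members called there lay between 34 and 42 when 1 library was left out and between 31 (limma on the deposited log2 values, which hold 47 members) and 43 (DESeq2) under the other alternatives. The count over all genes, 471, was 751 with DESeq2, 255 with only the 10 libraries of the pair and 276 without GC078615 and GC078605, and lay between 339 and 571 when 1 library was left out; the cause was not tested, except that the pair alone and the left-out libraries mean fewer samples. Between ARLmon testosterone and ARLmon vehicle 0 members and 0 genes were called under every alternative, with 0 to 0 over the libraries left out. There, the log2 difference of Ces2c (0.23) changed sign to -0.0475 without GC078615 and to -0.0478 without GC078615 and GC078605, and reached 0.32 without GC078612. The set itself held 27 genes at a ratio limit of 0.4 and 80 at 0.6, by construction, and between 45 and 54 when 1 library was left out, of which 43 to 49 were members (43 without GC078604, GC078605 or GC078606). It also depended on scaling. With library size only, without TMM factors, it held 43 genes, all of them members, and 36 members were called lower in ARLmon testosterone than in WT vehicle. TMM factors lay between 0.869 and 0.936 in WT testosterone and between 0.963 and 1.03 in WT vehicle libraries. The settings that left out 2 libraries together (GC078615 with GC078605, and GC078604 with GC078618) were chosen after seeing the data. No paired analysis was possible because the count columns carry no replicate number. Genes with few reads per library, such as Hrg and Ces2h (ARLmon libraries with 1 to 6 and 4 to 15 reads), are limited by depth.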
